A study of Mus musculus with 6 samples.

Results

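Lysosomes are the acidic compartments in which cells break down lipids, sugars, proteins and engulfed material. Heavily glycosylated membrane proteins line them, soluble hydrolases do the digestion, and the Npc proteins carry the cholesterol that is set free out of the organelle. Many genes of the system share a short promoter element, the CLEAR element, which is bound by transcription factors of the MiT/TFE family such as Tfeb. In brain, microglia and macrophages hold many lysosomes, while neurons and the other glia need them for their own turnover. The genes described here are 10 of the 26554 features in the deposited tables, chosen by name: the membrane proteins Cd68, Lamp1 and Lamp2, the cholesterol exporters Npc1 and Npc2, the hydrolases Hexa, Gusb and Lyz2, the progranulin gene Grn, and Tfeb itself. Npc2 and Grn encode soluble proteins that are not hydrolases, and Tfeb encodes a nuclear and cytosolic protein, so the set is wider than membrane proteins and hydrolases. All 10 passed the filter on low counts.

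RNA came from the ventral posterolateral and ventral posteromedial nuclei of the thalamus (VPL/VPM), which relay touch and pain signals to the cortex. One group of 3 libraries came from wild-type (WT) C57 mice that had 10 nL of type IV collagenase (0.01 U) placed in the right VPL/VPM, an enzyme that digests the collagen around vessels and so causes bleeding, as a model of central post-stroke pain. The other group of 3 libraries came from WT C57 mice given 10 nL of saline in the same place, and all tissue was taken at 14 days. The labels give no age, sex or number of animals per library, so a p-value here measures only how far these samples spread, which may be technical. Levels are CPM, counts scaled to a common library size with edgeR's TMM factors, or the authors' deposited FPKM where genes are compared with each other, since FPKM is scaled by transcript length.

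Relay neuron markers were present in every library: Prkcd measured 696 to 836 CPM in collagenase and 718 to 1087 CPM in saline libraries, and Slc17a6 433 to 572 CPM in collagenase and 400 to 632 CPM in saline libraries. The dissections were not alike. Summed markers of striatum reached 651 CPM in saline replicate 3, against 92.5 to 222 CPM in the collagenase libraries and 109.6 and 115 CPM in the other saline libraries. Summed choroid plexus markers were 19.2 CPM in collagenase replicate 3 and 21.1 CPM in saline replicate 3, against 926 to 2582 CPM in the other libraries. Summed hippocampal and cortical markers were 4.01 to 14.7 CPM in collagenase libraries, against 41.6, 65.3 and 4.31 CPM in saline replicates 1, 2 and 3. Summed habenula markers were 36.2 to 104 CPM in collagenase libraries, against 12.8, 20.3 and 93.6 CPM in saline replicates 1, 2 and 3. Total counts ran from 33603076 to 44815451.

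At 14 days after collagenase, 5 of the 10 genes rose: Lyz2, Cd68, Grn, Gusb and Hexa. Lyz2 rose 34.7-fold and Cd68 5.83-fold, while Grn, Gusb and Hexa rose 1.83-fold, 1.81-fold and 1.59-fold. Npc2, Tfeb, Lamp2, Lamp1 and Npc1 did not pass, and 0 of the 10 fell; at an unadjusted p under 0.05 edgeR had 6 higher and 0 lower, and the DESeq2 Wald test called 5 higher and 0 lower. A gene was called where its p from edgeR's quasi-likelihood F-test, adjusted by Benjamini and Hochberg's method over 17240 features, was under 0.05. Of all these features 2.41% were called, 2.12% higher and 0.29% lower. At the unadjusted p 7.44% were higher and 4.6% lower. DESeq2 called 3.09% higher and 0.916% lower, out of the 19648 features to which it gave an adjusted p. The median log2 fold change of the 10 genes was 0.58, against -0.02 over all features tested. The members were picked with earlier results of these data known, so their count is a description. The calls of Lyz2 and Cd68 held whichever of the 6 libraries was dropped, but those of Hexa, Grn and Gusb did not. Without collagenase replicate 1, without collagenase replicate 2 or without saline replicate 1 the count was 2, and without collagenase replicate 3 it was 4.

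**Figure D1:**
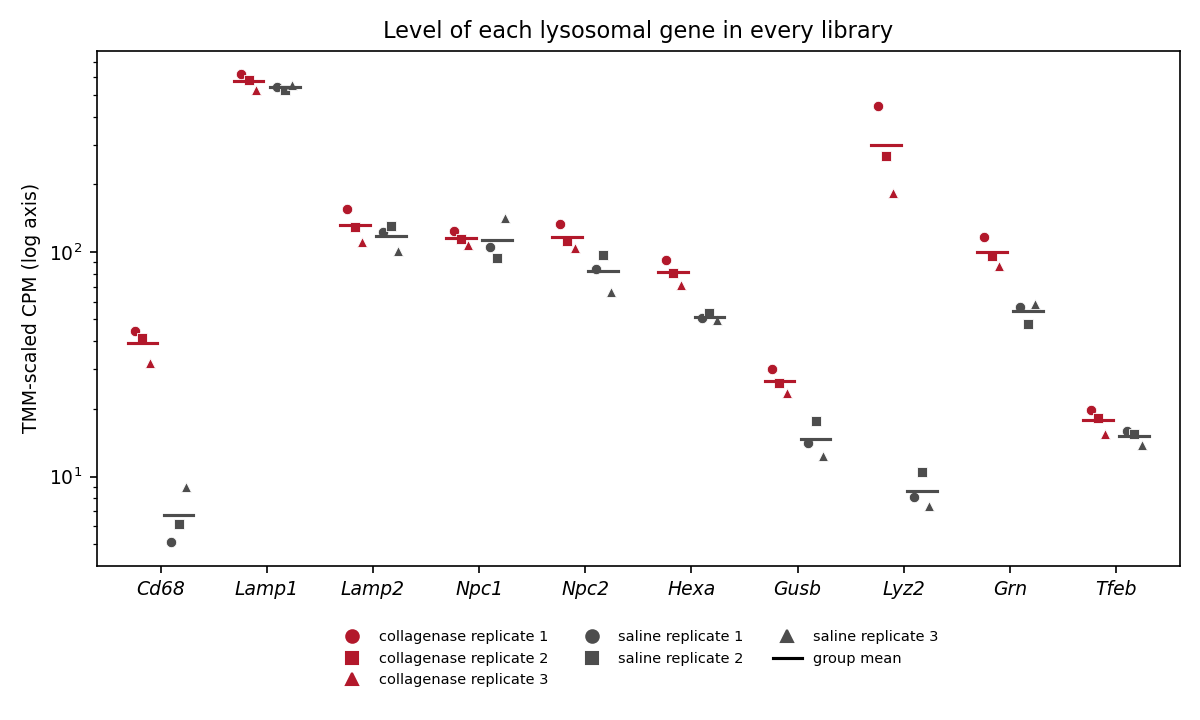
TMM-scaled CPM (log axis) of the 10 genes in every library, with collagenase libraries in red to the left of saline libraries in grey; symbols mark replicates and lines the group means. Lyz2 and Cd68 lie far above saline in each collagenase library, Grn, Hexa, Gusb and Npc2 lie above it by less, and Lamp1, Lamp2, Npc1 and Tfeb overlap.

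Of the membrane proteins, Cd68 alone passed. Cd68 (ENSMUSG00000018774, chromosome 11, 69664213 to 69666153, minus strand, GRCm38) encodes a lysosomal glycoprotein of macrophages and microglia that is related to the Lamp proteins. It measured 44.4, 41.4 and 32.1 CPM in collagenase replicates 1, 2 and 3, against 5.09, 6.17 and 9.005 CPM in saline replicates 1, 2 and 3. The groups lay far apart, and the lowest collagenase value was above every saline value. Its log2 fold change was 2.54 (standard error (SE) 0.23, edgeR adjusted p 0.0019), with a 95% interval of 2.03 to 3.06.

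Lamp1 (ENSMUSG00000031447, chromosome 8, 13159161 to 13175338, plus strand) encodes a main glycoprotein of the lysosomal membrane in nearly all cells. It measured 618, 582 and 525 CPM in collagenase libraries, against 543, 525 and 554 CPM in saline libraries. The groups overlapped, and the fit gave a log2 fold change of 0.09 with a 95% interval of -0.15 to 0.33 (edgeR adjusted p 0.823). That interval ends at a 1.25-fold rise. Lamp2 (ENSMUSG00000016534, chromosome X, 38401357 to 38456454, minus strand), a second such glycoprotein that also serves as a receptor in chaperone-mediated autophagy, measured 156, 129 and 110.2 CPM after collagenase and 123, 129.7 and 100.6 CPM after saline. These values overlapped too, and the fit gave 0.16 on the log2 scale (interval -0.19 to 0.51, edgeR adjusted p 0.765). Lamp1 overlaps Grtp1 on the opposite strand. The described library steps name no strand marking, so it is not known if reads from their shared stretch were told apart.

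Promoter windows are shown for Lamp1, Cd68, Grn and Lyz2. Lamp1, which did not pass, is the only member with the CLEAR core in its window. The windows of Cd68, Grn and Lyz2, which rose, hold no exact match to that core. Gusb and Hexa, which rose, and Lamp2, Npc2 and Tfeb, which did not pass, have none either. Each run is the 250 bases before the RefSeq start (GRCm38.p6), written 5′ to 3′ on the gene's own strand. The annotated gene of Grn starts earlier, at 102430315, so most of its run lies inside that gene. The Lyz2 run also reaches into its annotated gene, which ends at 117282321 on the minus strand. Capitals mark CACGTG (the core of the CLEAR element), TGACTCA (an AP-1 site, read TGAGTCA on the other strand) and GAGGAA (a core of sites for PU.1 and other ETS factors), each searched on both strands. None of these 3 motifs overlaps another in the runs shown.
Lamp1 (chr8:13158911-13159160, plus strand): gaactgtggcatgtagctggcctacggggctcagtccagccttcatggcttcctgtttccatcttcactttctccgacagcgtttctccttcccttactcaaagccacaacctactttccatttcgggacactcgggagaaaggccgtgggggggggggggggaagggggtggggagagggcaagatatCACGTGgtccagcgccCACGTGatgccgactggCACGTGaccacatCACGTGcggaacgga
Cd68 (chr11:69666171-69666420, minus strand): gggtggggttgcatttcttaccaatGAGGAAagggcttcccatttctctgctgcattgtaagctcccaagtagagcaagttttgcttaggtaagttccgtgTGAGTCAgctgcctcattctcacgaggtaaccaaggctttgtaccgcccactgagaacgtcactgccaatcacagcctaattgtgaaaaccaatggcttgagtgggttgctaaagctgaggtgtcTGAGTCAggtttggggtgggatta
Grn (chr11:102430257-102430506, plus strand): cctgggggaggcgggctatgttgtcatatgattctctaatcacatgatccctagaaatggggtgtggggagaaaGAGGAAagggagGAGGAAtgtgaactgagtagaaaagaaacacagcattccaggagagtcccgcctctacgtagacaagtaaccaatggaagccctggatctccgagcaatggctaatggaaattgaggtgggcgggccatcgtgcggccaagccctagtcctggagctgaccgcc
Lyz2 (chr10:117282273-117282522, minus strand): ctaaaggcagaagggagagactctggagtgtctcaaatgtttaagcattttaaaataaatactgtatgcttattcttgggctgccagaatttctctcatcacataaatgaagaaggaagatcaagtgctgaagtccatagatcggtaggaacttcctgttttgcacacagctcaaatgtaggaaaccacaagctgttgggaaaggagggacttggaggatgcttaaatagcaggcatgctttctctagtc

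RefSeq held a window for 9 of the 10 genes, with 3 windows for Tfeb. The searched windows run from 250 bases before to 50 bases after the start. Only Lamp1 among these 9 genes held CACGTG, in 4 copies whose first bases lie 61, 45, 28 and 15 bases before its start. Of 32851 promoter windows in the table, 7.15% held the motif at least once and 8 held it 4 or more times. Cd68 was the gene with TGACTCA, in 2 copies that begin 149 and 24 bases before its start, and 5.20% of all windows held that motif. GAGGAA was found in Cd68, Lamp2, Gusb and Grn and in 28.3% of all windows. Lyz2 held no exact match to any of the 3 motifs in its window. A match of letters is a description and was not tested for binding. Only these exact letters were searched, so a window without a match may still hold a variant of a site.

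The cholesterol exporters differed in their values, but neither passed. Npc2 (ENSMUSG00000021242, chromosome 12, 84754562 to 84773152, minus strand) encodes the soluble protein that hands cholesterol to Npc1. It measured 133, 112 and 104 CPM in collagenase libraries, against 84.3, 96.5 and 66.3 CPM in saline libraries, with no overlap. The fit put the log2 fold change at 0.49 (SE 0.16; 95% interval 0.14 to 0.85), which missed the threshold (edgeR adjusted p 0.211). Lack of overlap by itself was common, since 17.6% of tested features had none in either direction and 10.1% lay higher in every collagenase library. Npc1 (ENSMUSG00000024413, chromosome 18, 12189692 to 12236400, minus strand), the membrane protein that exports the cholesterol, measured 124, 114 and 107 CPM after collagenase and 105, 93.8 and 141 CPM after saline. Saline replicate 3 was the highest of the 6 libraries, and the fit gave 0.02 on the log2 scale (interval -0.33 to 0.37, edgeR adjusted p 0.98). The ratio of Npc2 to Npc1 within a library was 1.07, 0.982 and 0.967 after collagenase, against 0.800, 1.03 and 0.469 after saline. These ratios overlapped (exact two-sided permutation test, p 0.3), so the test did not separate the groups. Npc1 overlaps Rmc1 and Gm15956, and it is not known if reads from the shared stretches were told apart.

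All 3 hydrolases among the 10 genes rose, by very different amounts. Lyz2 (ENSMUSG00000069516, chromosome 10, 117277331 to 117282321, minus strand) encodes the lysozyme of macrophages, monocytes and neutrophils, which cuts bacterial cell walls. It measured 447, 269 and 183 CPM in collagenase replicates 1, 2 and 3, against 8.11, 10.5 and 7.36 CPM in saline replicates 1, 2 and 3. Collagenase replicate 1 was far above the others of its group, whose coefficient of variation (the SD as a share of the mean) was 45.1%, the widest of the 10 genes. The log2 fold change was 5.12 (SE 0.37, edgeR adjusted p 0.0019), with a 95% interval of 4.23 to 5.998.

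Lyz1, a near copy of Lyz2 made mainly in the gut, could share reads with it. It had 56, 17 and 8 counts after collagenase and 0, 5 and 0 counts after saline, too few to be tested. In the collagenase libraries Lyz1 made up 0.262%, 0.17% and 0.113% of the counts of both genes, so few counts were assigned to Lyz1. The labels do not say how reads that match both genes were assigned.

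Gusb (ENSMUSG00000025534, chromosome 5, 129989011 to 130003049, minus strand) encodes beta-glucuronidase, which removes glucuronic acid from glycosaminoglycans. Its levels were 30.2, 26.2 and 23.6 CPM in collagenase libraries, against 14.1, 17.7 and 12.3 CPM in saline libraries, with no overlap. The log2 fold change was 0.86 (SE 0.16, edgeR adjusted p 0.0343). Its call ended without saline replicate 1 (edgeR adjusted p 0.176) and without collagenase replicate 1, 2 or 3 (0.132, 0.12 and 0.0805), and the adjusted p was 0.0585 in limma on log2(FPKM + 1).

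Hexa (ENSMUSG00000025232, chromosome 9, 59539540 to 59565109, plus strand) encodes the alpha subunit of beta-hexosaminidase, the enzyme of ganglioside breakdown whose loss causes Tay-Sachs disease in humans. It measured 92.3, 80.6 and 71.3 CPM after collagenase and 50.8, 53.3 and 49.7 CPM after saline. The saline libraries lay close together and below every collagenase library. Its log2 fold change was 0.67 (SE 0.11, edgeR adjusted p 0.0256), and the adjusted p was 0.0873, 0.101 and 0.138 without collagenase replicate 1, collagenase replicate 2 and saline replicate 1. Hexa overlaps Tmem202 on the opposite strand, and it is not known if reads from the shared stretch were told apart.

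Grn (ENSMUSG00000034708, chromosome 11, 102430315 to 102437048, plus strand) encodes progranulin, a secreted protein that also enters lysosomes, where its granulins act on enzyme function; loss of the gene in humans causes a dementia or a lysosomal storage disease. It measured 116, 95.5 and 86.3 CPM in collagenase libraries, against 56.8, 47.7 and 58.8 CPM in saline libraries. Each collagenase library lay above all saline libraries. The log2 fold change was 0.87 (SE 0.14, edgeR adjusted p 0.0188), and the adjusted p was 0.0592, 0.0714 and 0.0956 without collagenase replicate 1, collagenase replicate 2 and saline replicate 1. Grn overlaps Fam171a2 on the opposite strand at its 3′ end, and it is not known if reads from the shared stretch were told apart.

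Tfeb (ENSMUSG00000023990, chromosome 17, 47737030 to 47792419, plus strand), whose protein moves into the nucleus when the kinase mTORC1 is inactive, measured 19.7, 18.3 and 15.5 CPM after collagenase and 16.0, 15.4 and 13.8 CPM after saline. The groups overlapped through collagenase replicate 3. The fit gave 0.24 on the log2 scale (95% interval -0.06 to 0.55, edgeR adjusted p 0.544). RNA level does not show where the Tfeb protein was.

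**Figure D2:**
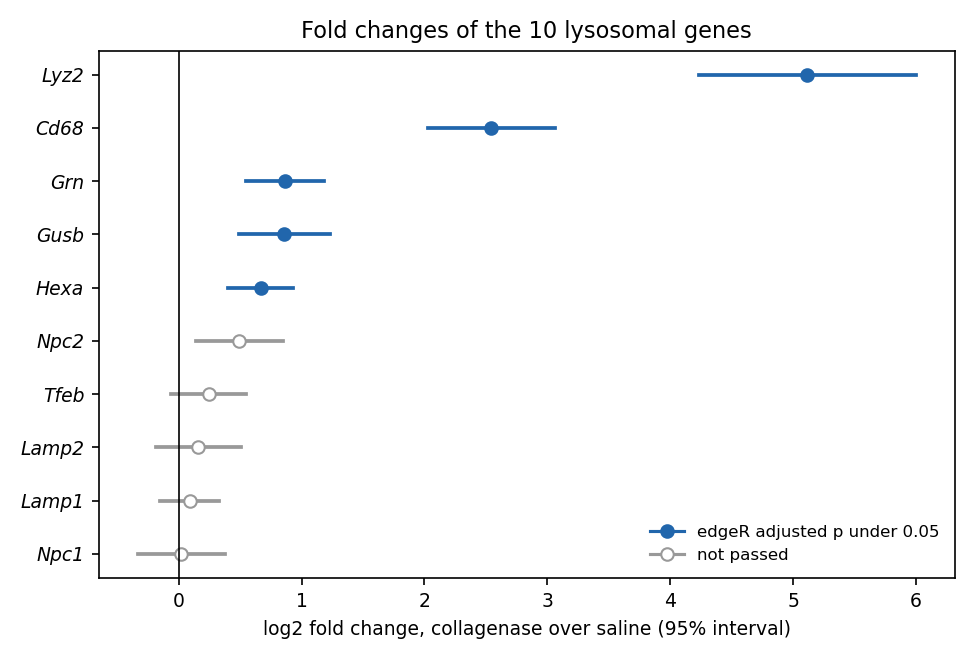
Log2 fold changes of collagenase over saline for the 10 genes, with 95% intervals from the edgeR fit; filled points passed. Lyz2 (5.12) and Cd68 (2.54) stand apart from a group between 0.49 and 0.87, and the intervals of Tfeb, Lamp2, Lamp1 and Npc1 include 0.

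The 10 genes shared an order within the collagenase group. All 10 were highest in collagenase replicate 1 and lowest in collagenase replicate 3, after TMM scaling, as were 21.6% of all tested features. The summed microglial markers (503, 457 and 409 CPM) and astrocyte markers (4665, 4558 and 4253 CPM) had the same order in collagenase replicates 1, 2 and 3. So did the summed striatum markers (222, 103 and 92.5 CPM), while the neuronal sum ran the other way (5009, 5790 and 5928 CPM). The other marker lists had neither order. The part of cell types or dissection in the shared order was not tested. In the saline group 5 genes were highest in replicate 2, 4 in replicate 3 and 1 in replicate 1. Coefficients of variation within the collagenase group ran from 7.41% for Npc1 to 17.5% for Lamp2 and 45.1% for Lyz2. Within saline they ran from 2.67% for Lamp1 to 29.9% for Cd68, whose highest saline value was in replicate 3.

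Per length, Lamp1 was the most abundant of the 10 in saline libraries and Cd68 the lowest. Lamp1 stood at 253 ± 29.0 FPKM in collagenase and 222 ± 8.88 FPKM in saline libraries (SD, n = 3 each). Lyz2 stood at 225 ± 110.1 FPKM after collagenase, against 6.06 ± 1.43 FPKM after saline, and its collagenase range of 133 to 347 FPKM overlapped that of Lamp1. After collagenase the order went on with Lamp2, Grn, Hexa, Npc2 and Cd68, from 46.1 ± 8.57 to 31.4 ± 5.97 FPKM, and each neighbour in that run overlapped the next. Npc1 followed at 21.6 ± 2.40 FPKM, Gusb at 10.8 ± 1.57 FPKM and Tfeb at 7.55 ± 1.19 FPKM, without overlap between neighbours from Cd68 down. In saline libraries Lamp2 stood at 40.8 ± 7.03 FPKM, and Hexa, Npc2, Grn and Npc1 followed between 23.6 ± 2.16 and 19.7 ± 3.03 FPKM, each overlapping the next. Lyz2, Tfeb, Gusb and Cd68 closed that order between 6.06 ± 1.43 and 4.99 ± 1.20 FPKM, also overlapping. Cd68 thus ranked 7 after collagenase and 10 after saline.

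**Figure D3:**
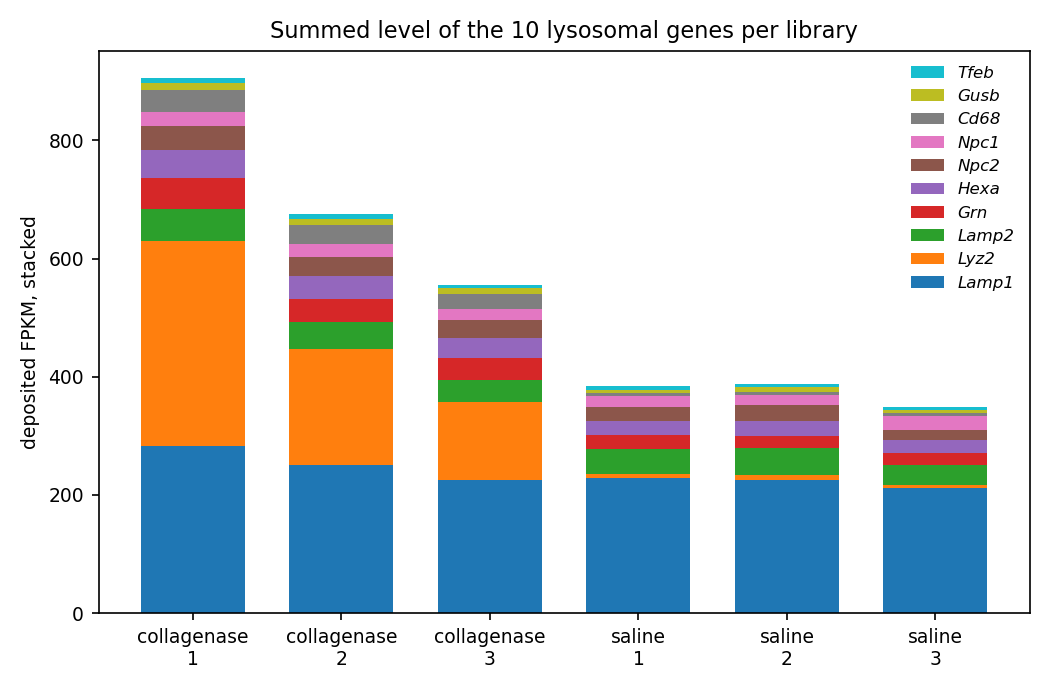
Deposited FPKM of the 10 genes stacked per library, collagenase libraries left of saline libraries. The sum is 556 to 907 FPKM after collagenase and 349 to 388 FPKM after saline, and Lyz2 is the layer that differs most.

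The summed level of the 10 genes was 907, 675 and 556 FPKM in collagenase replicates 1, 2 and 3, against 384, 388 and 349 FPKM in saline replicates 1, 2 and 3. Lyz2 made up 38.3%, 29.0% and 23.9% of that sum after collagenase and 1.51%, 1.96% and 1.37% after saline. Without Lyz2 the sum was 423 to 559.6 FPKM after collagenase, against 344 to 381 FPKM after saline. The ranges stayed apart, and Lamp1 was the largest part of the sum in every library except collagenase replicate 1. These FPKM were used as deposited, without TMM factors. The median log2 fold change over tested features was 0.06 in limma on log2(FPKM + 1), against -0.02 in edgeR. For Lamp1 these fits gave 0.18 and 0.09. The separation of the sums was not tested.

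To see how unequally the genes moved, each was divided by Lamp1 in the same library, which removes the scaling between libraries. For 7 of the 9 genes the ratio was higher in every collagenase library, and it overlapped for Lamp2 and Npc1; over all tested features 18.2% had no overlap of this ratio in either direction and 6.9% were higher in every collagenase library. The log2 difference was 4.95 for Lyz2, 2.48 for Cd68, 0.78 for Gusb and for Grn, 0.57 for Hexa, 0.42 for Npc2 and 0.15 for Tfeb. Grn over Lamp1, for example, was 0.188, 0.164 and 0.164 after collagenase, against 0.105, 0.0908 and 0.106 after saline. Each of the 7 had p 0.1 in an exact two-sided permutation test, the smallest possible, and 0.129 after adjustment over the 9 ratios. Lyz2 over Cd68 was 10.1, 6.49 and 5.69 after collagenase and 1.59, 1.70 and 0.818 after saline, a log2 difference of 2.46 (exact two-sided permutation test, p 0.1).

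Tissue RNA cannot tell more cells of a type from more RNA per cell. Some markers of phagocytes rose as well, but most of those tested did not pass. Of 12 tested microglial markers 5 rose, namely Fcrls, Cx3cr1, Csf1r, Aif1 and Olfml3. Their sum over the list was 409 to 503 CPM in collagenase libraries, against 255 to 312 CPM in saline libraries, and no marker was at 0. Among the others of that list, P2ry12, a receptor of resting microglia, measured 34.3 to 35.0 CPM after collagenase and 25.3 to 41.2 CPM after saline, and Tmem119 measured 20.4 to 23.3 CPM after collagenase and 13.6 to 16.1 CPM after saline. Of 9 tested markers of monocytes and border macrophages, Ccr2 alone rose, to 1.29 to 4.35 CPM after collagenase, against 0.113 to 0.291 CPM after saline. The sum of that list was 20.3 to 32.5 CPM after collagenase and 10.995 to 15.4 CPM after saline. Neutrophil markers summed to 0.833 to 3.29 CPM after collagenase and 0.381 to 0.721 CPM after saline, with Camp and Elane at 0 in every library, Ltf at 0 after collagenase, and Ly6g and Mpo at 0 after saline. T cell markers summed to 5.89 to 13.7 CPM after collagenase and 1.58 to 13.6 CPM after saline, and 3 of 6 tested rose (Cd3e, Cd3g and Cd8a). Cd3e, Cd3d, Cd3g and Cd8a had counts in each collagenase library, where Cd8a measured 3.19, 1.02 and 1.35 CPM, and were at 0 in each saline library. The overlap of the sums came from Cd4, which measured 13.1 CPM in saline replicate 3. Astrocyte markers summed to 4253 to 4665 CPM after collagenase and 3476 to 3784 CPM after saline, where Gfap and Aqp4 rose. The neuronal sum was 5009 to 5928 CPM after collagenase, against 6022 to 7420 CPM after saline. The part of these cell markers in the lysosomal differences was not tested.

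**Figure D4:**
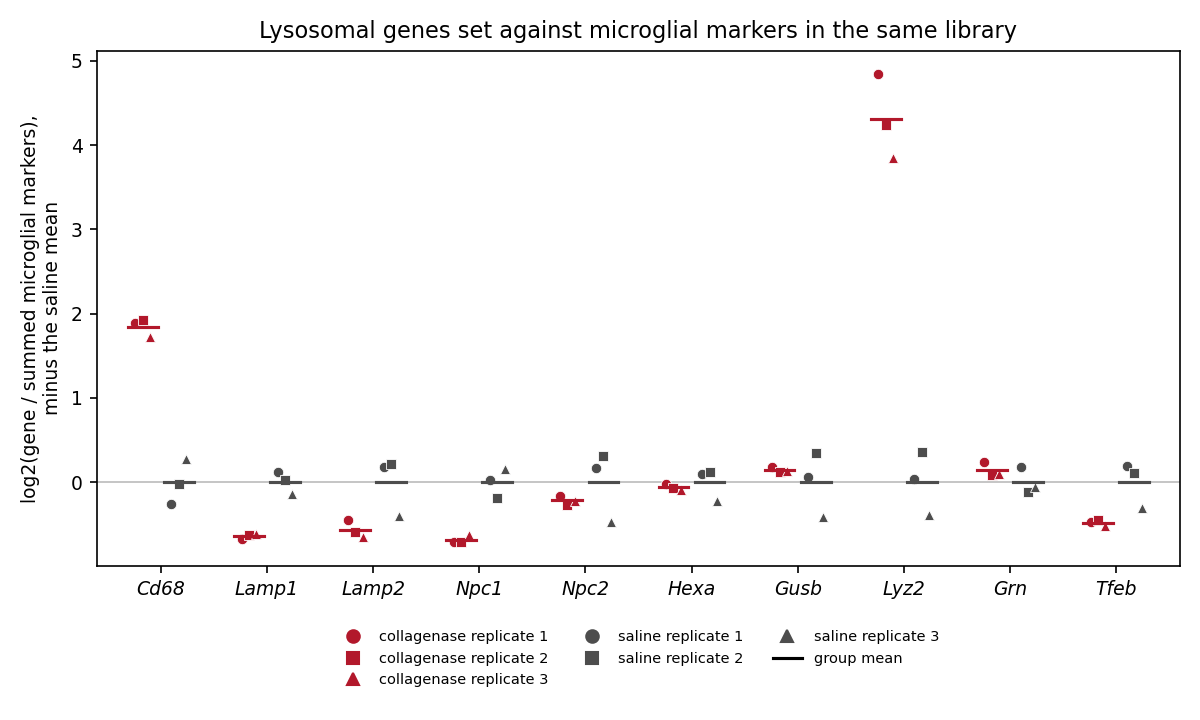
Log2 of each gene over the summed microglial markers of the same library, less the saline mean of that gene; collagenase in red, left of saline in grey. Cd68 and Lyz2 lie above saline in every collagenase library, Lamp1, Lamp2, Npc1 and Tfeb lie below it, and Npc2, Hexa, Gusb and Grn overlap.

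Set against the summed microglial markers of the same library, the 10 genes fell into 3 patterns. Lyz2 and Cd68 were still higher in every collagenase library. The ratio of Lyz2 to the marker sum was 0.890, 0.587 and 0.447 after collagenase, against 0.0318, 0.0398 and 0.0236 after saline, a log2 difference of 4.31. For Cd68 it was 0.0883, 0.0906 and 0.0786 after collagenase, against 0.0200, 0.0234 and 0.0288 after saline, a log2 difference of 1.85. Grn, Gusb, Hexa and Npc2 overlapped between groups, with log2 differences of 0.14, 0.14, -0.06 and -0.22. The ratio of Grn, for instance, was 0.231, 0.209 and 0.211 after collagenase and 0.222, 0.181 and 0.188 after saline.

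The ratios of Lamp1, Lamp2, Npc1 and Tfeb were lower in every collagenase library, with log2 differences of -0.64, -0.57, -0.68 and -0.48. Lower ratios are the usual case, because the marker sum itself was higher: 72.3% of tested features had no overlap of this ratio, 70.0% had a ratio that was lower in every collagenase library, and 2.27% one that was higher. Each ratio without overlap had p 0.1 in an exact two-sided permutation test, the smallest possible (0.167 after adjustment over the 10 ratios). With only P2ry12, Tmem119 and Siglech as markers, the ratios of Lamp2 and Tfeb overlapped. That of Grn was higher in every collagenase library, by 0.53 on the log2 scale. Those of Lamp1 and Npc1 stayed lower in every collagenase library, with log2 differences of -0.24 and -0.29. The share of all features without overlap was not computed for these 3 markers, so the separation of Grn has no background to be read against.

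The wider system was described with 5 lists of other lysosome genes, leaving out cathepsins, cystatins and proton pump subunits. Of 125 tested genes 13 rose and 0 fell, with a median log2 fold change of 0.07. The share called higher over all features was 2.12%, as above. At an unadjusted p under 0.05 24 were higher and 6 lower in edgeR, and the DESeq2 Wald test called 17 higher and 2 lower (Mfsd8 and Ppp3r1). Among the 13, Gpnmb and Pld4 alone kept their calls whichever of the 6 libraries was dropped, and the count of rises was 2 without saline replicate 1 and 4 without collagenase replicate 1 or 2. The lists were written with earlier results of these data known.

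Among 33 tested membrane proteins and transporters 5 rose, and the median log2 fold change was 0.01. Slc15a3, a transporter of histidine and small peptides, measured 8.24 ± 2.99 CPM after collagenase and 2.08 ± 0.139 CPM after saline (SD, n = 3 each; edgeR adjusted p 0.0106). Laptm5, a lysosomal membrane protein, measured 104 ± 15.1 CPM after collagenase and 40.3 ± 11.1 CPM after saline (edgeR adjusted p 0.0142). Cd63, a tetraspanin of late endosomes, had a log2 fold change of 0.75 (SE 0.14). Mcoln3, a cation channel of the mucolipin family, measured 1.11 ± 0.388 CPM after collagenase and 0.111 ± 0.0501 CPM after saline. Its relative Mcoln2, named after its values were seen, had 34, 26 and 11 counts in collagenase replicates 1, 2 and 3. In saline replicates 1, 2 and 3 it had 0, 2 and 0. Summed per group, 71 against 2 counts gave a TMM-scaled ratio of 32.5, with an exact 95% counting interval of 8.66 to 273. That interval leaves out variation between libraries, and the call of Mcoln2 was lost when any of 4 libraries was dropped. Laptm4a and Laptm4b, the most abundant per length of those that did not pass, had log2 fold changes of -0.01 and -0.25.

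Of 23 tested glycosidases and sulfatases 4 rose, and the median was 0.22. Among them were the mannosidase gene Man2b1 and Naglu, which encodes an enzyme of heparan sulfate breakdown. Man2b1 measured 63.1 ± 9.17 CPM after collagenase and 37.4 ± 1.23 CPM after saline (SD, n = 3 each; edgeR adjusted p 0.0209). Naglu reached 0.69 on the log2 scale (SE 0.14) and lost its call when any of 5 libraries was dropped. Gaa, the acid glucosidase of glycogen, measured 376 ± 24.1 CPM after collagenase and 314 ± 28.8 CPM after saline without passing (edgeR adjusted p 0.398), and the sulfatase gene Ids missed the threshold too, with a log2 fold change of -0.18.

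Of 23 tested lipases, phosphatases, other proteases and sphingolipid activators 4 rose, and the median was 0.30. Gpnmb, which encodes a transmembrane glycoprotein and none of these enzymes, measured 115 ± 49.1 CPM after collagenase and 1.29 ± 0.245 CPM after saline. Pld4, an endolysosomal exonuclease, measured 20.7 ± 2.33 CPM after collagenase and 8.36 ± 1.51 CPM after saline (SD, n = 3 each; edgeR adjusted p 0.00801). Dnase2a, the acid DNase that digests engulfed DNA, reached 1.18 on the log2 scale (SE 0.17), and Lipa, the acid lipase that frees cholesterol from its esters, 0.63 (SE 0.12). Psap, the precursor of the saposins and the most abundant of this list, measured 1641 ± 138 CPM after collagenase and 1355 ± 58.1 CPM after saline without passing (edgeR adjusted p 0.38). Pld3, a relative of Pld4, had a log2 fold change of 0.12 (edgeR adjusted p 0.814).

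None of the 22 tested genes that carry proteins to the lysosome passed in edgeR, and neither did any of the 24 tested MiT/TFE factors and regulators. The medians were 0.01 and -0.06. At an unadjusted p under 0.05 the first list had 0 higher and 1 lower, and the second 2 higher and 3 lower; the DESeq2 Wald test called 0 of the first list and 1 of the second, Ppp3r1, which was lower. Sort1, a sorting receptor, and Rab7, a GTPase of late endosomes, had log2 fold changes of -0.20 (95% interval -0.45 to 0.06) and -0.04 (-0.36 to 0.28). Ppp3r1 and Ppp3cb, subunits of calcineurin, the phosphatase that acts on Tfeb, had -0.41 (-0.68 to -0.14) and -0.39 (-0.68 to -0.10), with edgeR adjusted p of 0.169 and 0.223. Tfe3 and Mitf, the relatives of Tfeb, named after their values were seen, measured 41.6 ± 1.92 CPM after collagenase and 36.3 ± 6.06 CPM after saline, and 13.2 ± 3.12 CPM after collagenase and 13.1 ± 1.43 CPM after saline. Tfec, with 29 counts after collagenase and 9 after saline, was too low to be tested.

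**Figure D5:**
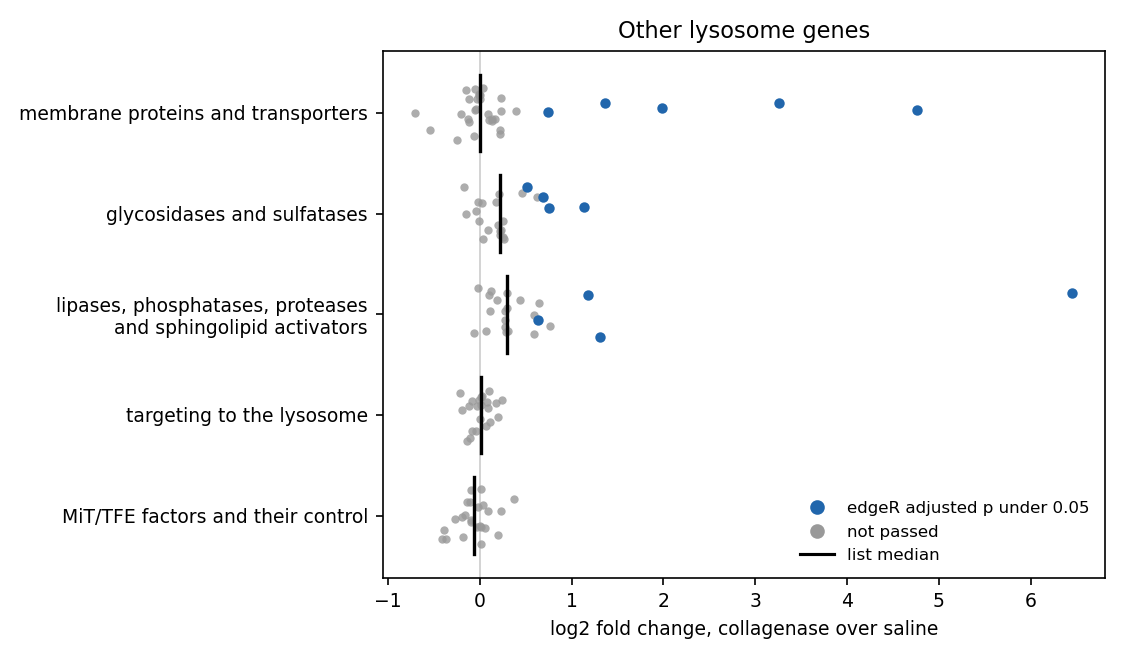
Log2 fold changes, collagenase over saline, of the other lysosome genes by list; blue points passed, grey points did not, and black lines are list medians. The points that passed lie to the right in the first 3 lists, and the lists of targeting genes and of MiT/TFE factors hold none; the fitted value of Mcoln2, the rightmost membrane protein, rests on 2 saline counts.

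The promoters of the wider lists were searched in the same way. Of 108 listed genes with a RefSeq window 27 (25%) held CACGTG in any of their windows, and 7.15% of all windows held it. The first share is per gene and the second per window. A gene with several windows has more chances of a match, so the shares are not like for like. Of the 26 tested genes with the motif 2 rose (Mcoln2 and Naglu) and the median log2 fold change was 0.11; of the 78 without it 8 rose and the median was 0.02. Lamp1, with 4 copies, had a log2 fold change of 0.09, and Lyz2 and Cd68, with no copy in the window, had 5.12 and 2.54. Grn, Gusb, Hexa, Npc2, Tfeb and Lamp2, also with no copy, had 0.87, 0.86, 0.67, 0.49, 0.24 and 0.16. No test was run on this split. Variants of CACGTG were not searched, so a gene counted as without the motif may hold a variant.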

How the data were processed

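Poly(A) RNA of 6 libraries (3 collagenase, 3 saline) was sequenced. Per the submitters' processing notes, FastQC, HISAT2 2.2.1, StringTie and DESeq2 were used on GRCm38, without the role of each being stated. The authors deposited 1 table per library, with read counts (raw, per the file headers and values) and FPKM for each feature. Annotated gene positions are from GENCODE M21. Counts were scaled by TMM and tested with edgeR 4.0.16 (R 4.3.3; filterByExpr, robust quasi-likelihood F-test, two-sided, Benjamini-Hochberg adjustment over 17240 features, threshold 0.05). Ratios within a library were compared with exact two-sided permutation tests, whose smallest p is 0.1 for 3 against 3. Alternatives were DESeq2 1.42.0, other scaling factors, no filter on low counts, limma 3.58.1 on log2(FPKM + 1) and log2(FPKM + 0.1), a replicate block, and leaving out each library. Total counts were 33603076 to 44815451. Intervals on counts cover counting error only.

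The 10 genes and all lists were chosen with earlier results of these data known. Of each list of other lysosome genes, up to 4 that passed (smallest p) and up to 2 that did not (highest mean FPKM) are named, except for some items that are not reported here. Lyz1 is named always, as are P2ry12, Tmem119, Ccr2, Prkcd and Slc17a6 among the markers. The other markers are named where they passed or were at 0, apart from Cd4 and Siglech. Cd4 is named for its value in saline replicate 3, and Siglech as 1 of the 3 markers of the narrower ratio. The ratios of Npc2 to Npc1 and of Lyz2 to Cd68 were chosen after seeing the data.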

Additional observations from a re-analysis of the deposited data

How the results depend on the processing

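Of the 10 genes, 5 were higher under each other scaling, without the filter, in DESeq2 and with the replicate block, and 4 in limma on FPKM, where Gusb had a log2 fold change of 0.78 (pseudocount 1) and 0.87 (pseudocount 0.1). With a library left out the count was 2 to 5, and the log2 fold change was 0.57 to 0.76 for Hexa, 0.75 to 1.01 for Gusb, 0.74 to 0.96 for Grn and -0.10 to 0.21 for Npc1. Over all features, 366 were higher and 50 lower; DESeq2 gave 608 and 180, limma gave 24 lower at either pseudocount, and leaving out a library gave 81 to 503 higher (81 without saline replicate 1) and 4 to 414 lower (414 without saline replicate 3). Of the listed lysosome genes 13 were higher, against 8 in limma on log2(FPKM + 1), 8 with the replicate block and 2 to 18 without a library; 0 were lower, against 2 in DESeq2 and 0 to 3 without a library. With 3 microglial markers the log2 difference of the ratio was 0.17 for Npc2 and 0.33 for Hexa. For the ratio to the full microglial marker sum, the log2 difference without a library was -0.17 to 0.0011 for Hexa and -0.064 to 0.32 for Gusb. Lamp2 over Lamp1 was -0.0059 on FPKM and -0.059 to 0.16 without a library, and Npc1 over Lamp1 -0.15 to 0.10. The causes were not tested. Same-numbered libraries had correlations of their deviations from the group means of 0.04, 0.11 and 0.20. Collagenase replicates 2 and 3 correlated best with the saline library of the same number, and collagenase replicate 1 with saline replicate 2 (0.08). The labels do not say what the numbers mark, and they were not taken to pair the samples. The replicate block gave 252 higher and 50 lower over all features.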
